A study of Homo sapiens with 18 samples.

Results

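The genes described here are 42 genes of the ATF4 pathway, of amino acid transport and of serine and one-carbon metabolism, taken by symbol from the array's probe annotation. A probe was assigned to 40 of them among the 21448 probes measured, and ATF5 and GPT2 were not analysed here. Total RNA of 2 human neuroblastoma cell lines, CHLA-90 and SK-N-BE(2), was hybridised to whole-transcript arrays 72 hours after lentiviral transduction. SK-N-BE(2) has amplified MYCN and CHLA-90 has not. Each line had 3 groups of 3 biological replicates, transduced with pLKO virus for shERK5-4 or shERK5-5, hairpins against ERK5, or with shNSC, the control hairpin. ERK5 is a mitogen-activated protein kinase whose gene is MAPK7. Every group therefore received virus produced in HEK-293T cells, and all cells grew in medium with 20% serum. The labels give no untransduced cells, no rescue and no protein level of ERK5, and each line stands for 1 tumour.

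ATF4 is a transcription factor of the integrated stress response. Amino acid shortage, unfolded protein and other stresses activate kinases that phosphorylate the initiation factor eIF2 alpha. General translation then falls while translation of ATF4 rises, so ATF4 activity is set largely after transcription and its mRNA level is only a partial readout. With C/EBP-family partners, ATF4 activates genes for amino acid import, amino acid synthesis, tRNA charging and feedback control. Proliferating tumour cells, MYCN-amplified neuroblastoma among them, draw on the serine branch of this programme for glycine and one-carbon units.

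The composite element that ATF4 binds together with a C/EBP protein has the core TGATGNAA. A RefSeq promoter window (GRCh38.p14, 250 bases before to 50 bases after an annotated start) was held for 33 of the 40 measured genes. The core stood on either strand in 12 of these 33 genes (36.4%), against 4.46% of all 27305 genes with a window. Counted by window, it was in 14 of the 56 windows of these genes and in 3.62% of all 35116 windows. The genes were listed as ATF4 pathway genes, so this share is a description of the list, and a match is a run of letters and not a binding site. The stretches below are shown because these genes carry contrasting results, 5′ to 3′ on the gene's strand, with the core in capitals (as its reverse complement in CHAC1, AARS1 and GARS1).
CEBPG, chr19:33374041-33374108, plus strand: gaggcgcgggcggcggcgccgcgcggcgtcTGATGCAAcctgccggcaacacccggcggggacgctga
CHAC1, chr15:40953232-40953299, plus strand: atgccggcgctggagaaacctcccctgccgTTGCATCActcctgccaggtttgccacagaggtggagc
ASNS, chr7:97872439-97872506, minus strand: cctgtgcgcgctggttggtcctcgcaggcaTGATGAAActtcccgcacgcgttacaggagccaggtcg
MTHFD1L, chr6:150866327-150866394, plus strand: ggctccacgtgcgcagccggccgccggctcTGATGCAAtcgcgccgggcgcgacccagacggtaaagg
SLC1A5, chr19:46784874-46784941, minus strand: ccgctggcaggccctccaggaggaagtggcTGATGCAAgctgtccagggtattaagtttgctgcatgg
AARS1, chr16:70289656-70289723, minus strand: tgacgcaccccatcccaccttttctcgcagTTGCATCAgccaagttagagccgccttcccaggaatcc
GARS1, chr7:30594815-30594877, plus strand: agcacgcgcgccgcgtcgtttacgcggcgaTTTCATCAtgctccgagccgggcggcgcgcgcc
The first base of the core lay 42 bases before the start in CEBPG, 209 in CHAC1, 68 in ASNS, 90 in the shown window of MTHFD1L, 97 in SLC1A5, 187 in AARS1 and 33 in GARS1. The other genes with the core were ATF3, JDP2, SLC1A4, SLC3A2 and SLC7A1. In the last 3 it overlapped or followed the start.

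The deposited values are log2 signals, so a difference of 1 is a doubling. A change is called where limma's p-value, adjusted by the Benjamini-Hochberg method over all 21448 probes of the comparison, lies under 0.05. Errors of changes are standard errors (SE) of that model with 3 arrays per group. Array medians were 6.35 to 6.43 in CHLA-90 and 5.63 to 5.69 in SK-N-BE(2), and each array correlated with the others of its group with a mean r of 0.989 to 0.996. MAPK7 stood below shNSC with both hairpins in both lines. In CHLA-90 its log2 change was -1.07 ± 0.19 (adjusted p = 0.000329) for shERK5-4 and -0.99 ± 0.19 (adjusted p = 0.00139) for shERK5-5. In SK-N-BE(2) it was -0.69 ± 0.19 (adjusted p = 0.0103) for shERK5-4 and -0.64 ± 0.19 (adjusted p = 0.0319) for shERK5-5. An exact two-sided permutation test of 6 hairpin arrays against 3 shNSC arrays gave p = 0.0238 for each line, the lowest value possible with 84 assignments. The SK-N-BE(2) calls were lost without shNSC replicate 1 for shERK5-4 (adjusted p = 0.061) and without any of 4 arrays for shERK5-5 (up to 0.149): shERK5-5 replicate 1 or 2, or shNSC replicate 1 or 3.

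Marker genes of the cell types also moved. Of all probes in CHLA-90, 10.0% rose and 8.25% fell with shERK5-4, and 5.85% rose and 6.84% fell with shERK5-5. The shares in SK-N-BE(2) were 12.2% and 11.7% with shERK5-4 and 6.76% and 6.07% with shERK5-5. Of 8 measured neuroblastoma markers (noradrenergic enzymes, granins and sympathetic transcription factors), in CHLA-90 shERK5-4 lowered 6 and shERK5-5 lowered 2. In SK-N-BE(2) shERK5-4 lowered 5 and shERK5-5 raised 1. Their median log2 change with shERK5-4 and shERK5-5 was -1.955 and -0.17 in CHLA-90 and -0.95 and 0.20 in SK-N-BE(2). The log2 of their summed signal was 15.41 to 15.74 with shERK5-4, 16.29 to 16.64 with shERK5-5 and 16.32 to 16.75 with shNSC in CHLA-90. Such a sum weighs bright genes most. In CHLA-90 the brightest was TH, with means of 14.95 with shERK5-4, 15.22 with shERK5-5 and 14.90 with shNSC. TH thus did not share the lower sum with shERK5-4. CHGA there had means of 10.37 with shERK5-4 and 14.28 with shNSC, and GATA3 had 13.54 and 14.08. In SK-N-BE(2) the log2 of the summed signal was 13.57 to 14.03 with shERK5-4, 14.84 to 15.17 with shERK5-5 and 14.85 to 15.13 with shNSC. PHOX2A, HAND2 and GATA3 had mean shNSC signals of 11.69, 11.48 and 14.08 in CHLA-90 and of 12.35, 10.90 and 11.86 in SK-N-BE(2). DBH, the enzyme that makes noradrenaline, had 13.67 in CHLA-90 and 4.87 in SK-N-BE(2) with shNSC. Its CHLA-90 mean was 8.40 with shERK5-4 and 13.17 with shERK5-5. Of 6 fibroblast markers, 3 fell with shERK5-4 and 1 rose with shERK5-5 in CHLA-90, while in SK-N-BE(2) 1 rose and 3 fell with shERK5-4 and 4 rose with shERK5-5. The log2 of their summed signal was 11.39 to 11.53 with shERK5-4, 12.75 to 12.99 with shERK5-5 and 12.55 to 12.63 with shNSC in CHLA-90. The SK-N-BE(2) values were 12.46 to 12.70 with shERK5-4, 16.08 to 16.10 with shERK5-5 and 14.61 to 14.92 with shNSC. LUM was the brightest there, with means of 11.32 with shERK5-4, 15.75 with shERK5-5 and 14.49 with shNSC. Of 4 measured blood and immune markers, 1 was called, PTPRC (CD45), which fell with shERK5-4 in SK-N-BE(2), with a mean of 5.94, against 7.90 with shNSC. Of 4 epithelial markers, 1 was called, EPCAM, with both hairpins in SK-N-BE(2), where its mean was 6.33 with shERK5-4 and 4.02 with shERK5-5, against 5.15 with shNSC. The part of these shifts in the results below was not tested, and in bulk RNA fewer cells of a type cannot be told apart from less RNA per cell.

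Increases and decreases were both called among the 40 genes, except with shERK5-5 in SK-N-BE(2). With shERK5-4 in CHLA-90, 3 of the 40 genes rose and 6 fell, against 10.0% and 8.25% of all probes. With shERK5-5 in CHLA-90, 5 rose and 2 fell (background 5.85% and 6.84%). In SK-N-BE(2), 10 rose and 5 fell with shERK5-4 (12.2% and 11.7%), while 21 rose and 0 fell with shERK5-5 (6.76% and 6.07%). The 21 genes are 52.5% of those measured. The median log2 change of the 40 genes in that comparison was 0.60, against -0.00 over all probes. The genes were chosen with earlier results of these data known, so their shares here and below describe the list and are not a test. In the other 3 comparisons the median of the 40 genes was -0.17 and -0.10 for shERK5-4 and shERK5-5 in CHLA-90 and 0.18 for shERK5-4 in SK-N-BE(2), against 0.01, 0.05 and 0.01 over all probes. The 2 hairpins of a line share its 3 shNSC arrays, so these comparisons are not independent of each other.

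**Figure D1:**
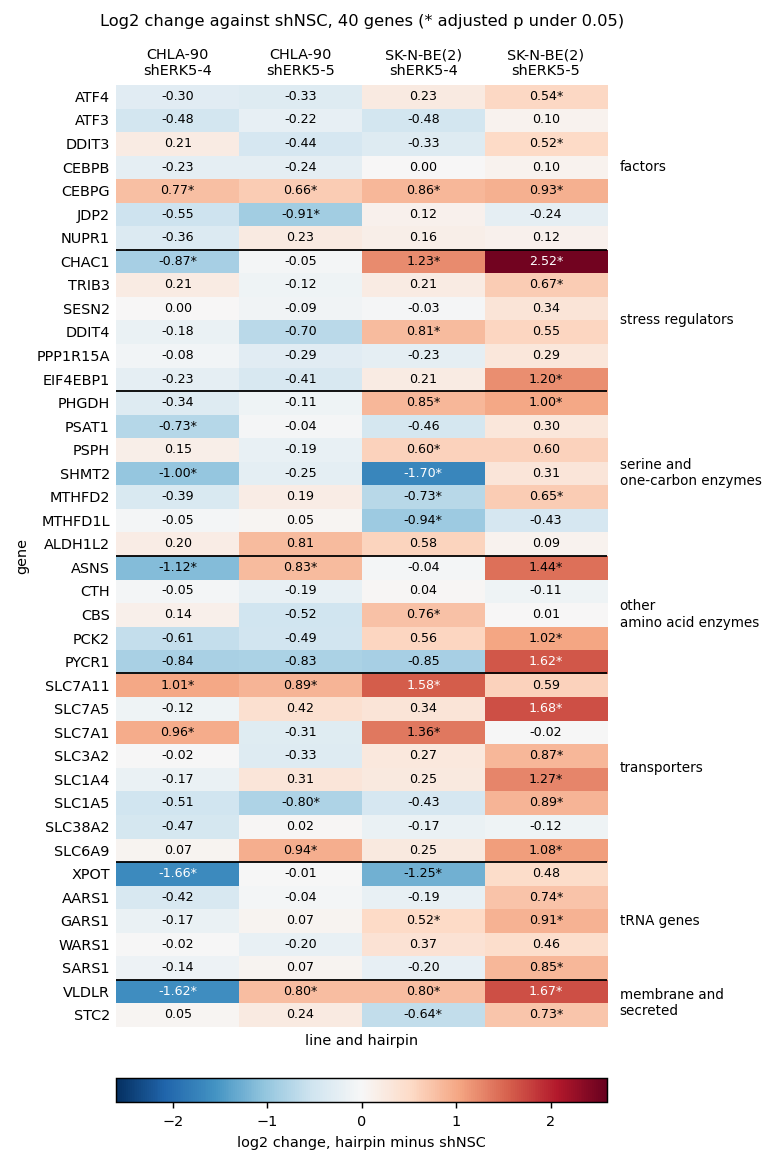
Log2 change of each of the 40 measured genes (rows, by role) with shERK5-4 and shERK5-5 against shNSC in CHLA-90 and SK-N-BE(2) (columns), where red is higher and blue lower than shNSC and an asterisk marks an adjusted p under 0.05. The SK-N-BE(2) shERK5-5 column holds 21 marked increases and 0 marked decreases, and the row of CEBPG is marked in every column.

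CEBPG and VLDLR were called in all 4 comparisons with shNSC, and CHAC1, ASNS and SLC7A11 in 3. A further 9 genes were called in 2 comparisons and 17 in 1. The 9 genes called in none were ATF3, CEBPB, NUPR1, SESN2, PPP1R15A, ALDH1L2, CTH, SLC38A2 and WARS1. How many of all probes were called in as many comparisons was not counted, so these counts only describe the list.

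Among the transcription factors, CEBPG was the 1 gene of the 40 that rose with both hairpins in both lines, a pattern of the same sign in all 4 comparisons that 1.29% of all probes showed. CEBPG encodes C/EBP gamma, a dimerisation partner of ATF4. Its log2 signal in CHLA-90 was 10.82, 10.66 and 10.78 with shERK5-4, 10.53, 10.67 and 10.72 with shERK5-5, and 9.87, 10.24 and 9.83 with shNSC. In SK-N-BE(2) it was 9.18, 9.46 and 9.19 with shERK5-4, 9.34, 9.19 and 9.51 with shERK5-5, and 8.58, 8.17 and 8.51 with shNSC. In both lines all 6 hairpin arrays lay above all 3 shNSC arrays. The CHLA-90 changes were 0.77 ± 0.17 (adjusted p = 0.0017) for shERK5-4 and 0.66 ± 0.17 (adjusted p = 0.0106) for shERK5-5, or 1.71-fold and 1.58-fold. In SK-N-BE(2) they were 0.86 ± 0.17 (adjusted p = 0.00042) and 0.93 ± 0.17 (adjusted p = 0.000406), or 1.81-fold and 1.9-fold. The hairpins differed in CEBPG by 0.11 in CHLA-90 (95% interval -0.23 to 0.46) and by -0.07 in SK-N-BE(2) (-0.42 to 0.28), neither past the threshold. The CHLA-90 call with shERK5-5 was lost without shNSC replicate 1 or 3 (adjusted p up to 0.0588).

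ATF4 itself rose in 1 comparison, shERK5-5 in SK-N-BE(2). There its log2 signal was 13.12, 13.60 and 13.47 with shERK5-4, 13.77, 13.77 and 13.56 with shERK5-5, and 13.26, 13.15 and 13.08 with shNSC. The shERK5-5 arrays lay above every shNSC array, and the shERK5-4 arrays overlapped with those of shNSC. The change with shERK5-5 was 0.54 ± 0.16 (adjusted p = 0.029), and with shERK5-4 it was 0.23 ± 0.16 (adjusted p = 0.359). In CHLA-90 the signal was 12.24, 11.99 and 11.86 with shERK5-4, 11.92, 12 and 12.09 with shERK5-5, and 12.30, 12.24 and 12.45 with shNSC, with changes of -0.30 and -0.33 that did not pass the threshold (adjusted p = 0.241 and 0.206). The SK-N-BE(2) increase was small and lost its call without shERK5-5 replicate 1 or 2 or shNSC replicate 2 or 3 (adjusted p up to 0.102), after quantile normalization and in a fit of the SK-N-BE(2) arrays alone.

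DDIT3, which encodes the stress-induced factor CHOP, had log2 signals in SK-N-BE(2) of 5.10, 5.36 and 5.58 with shERK5-4, 6.53, 6.04 and 6.00 with shERK5-5, and 5.71, 5.51 and 5.80 with shNSC. The shERK5-5 arrays stood above the others, with a change of 0.52 ± 0.17 (adjusted p = 0.0496) that lost its call without any 1 of 13 arrays, 8 of them CHLA-90 arrays that enter only through the shared spread and the adjustment (adjusted p up to 0.297), and under 3 other settings. In CHLA-90 it had 6.35, 6.51 and 6.37 with shERK5-4, 5.87, 5.64 and 5.76 with shERK5-5, and 6.23, 6.23 and 6.13 with shNSC. There the shERK5-5 arrays were the lowest, but neither hairpin was called against shNSC. JDP2, a repressor of the AP-1 family, fell with shERK5-5 in CHLA-90, to 5.38, 5.68 and 5.50, against 6.58, 6.37 and 6.35 with shNSC, a change of -0.91 ± 0.20 (adjusted p = 0.00431). The shERK5-4 arrays there, at 5.67, 6.01 and 5.98, also lay below those of shNSC and overlapped with those of shERK5-5, without a call. These hairpin signals of JDP2 lay below the array medians of the line (6.35 to 6.43). Neither ATF3, an induced repressor downstream of ATF4, nor CEBPB, another C/EBP partner, nor the chromatin-associated stress protein NUPR1 passed the threshold against shNSC, with log2 changes between -0.48 and 0.23.

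Of the 6 feedback and stress regulators, in CHLA-90 0 rose and 1 fell with shERK5-4, and 0 were called with shERK5-5. In SK-N-BE(2) 2 rose with shERK5-4 and 3 with shERK5-5, and 0 fell. Of all probes, 8.25% fell with shERK5-4 in CHLA-90, and 12.2% and 6.76% rose with shERK5-4 and shERK5-5 in SK-N-BE(2). CHAC1, a glutathione-degrading enzyme and a sensitive ATF4 target, had the highest change of the 40 genes. Its log2 signal in SK-N-BE(2) was 6.41, 6.83 and 7.34 with shERK5-4, 8.05, 7.92 and 8.47 with shERK5-5, and 5.34, 5.60 and 5.95 with shNSC. The 3 groups did not overlap, with shERK5-5 highest and shNSC lowest. The changes were 1.23 ± 0.21 (adjusted p = 0.00013), or 2.35-fold, with shERK5-4 and 2.52 ± 0.21 (adjusted p = 2.88e-08), or 5.72-fold, with shERK5-5. In CHLA-90 CHAC1 had 6.84, 6.67 and 6.95 with shERK5-4, 7.75, 7.48 and 7.71 with shERK5-5, and 7.63, 7.56 and 7.89 with shNSC. Here shERK5-4 stood below both other groups, with a change of -0.87 ± 0.21 (adjusted p = 0.00531), while shERK5-5 overlapped with shNSC (-0.05, adjusted p = 0.925).

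EIF4EBP1, which encodes the translational repressor 4E-BP1, rose with shERK5-5 in SK-N-BE(2) by 1.20 ± 0.28 (adjusted p = 0.00473), with 13.28, 12.75 and 12.74, against 11.81, 11.45 and 11.90 with shNSC. TRIB3, a pseudokinase that feeds back on ATF4, rose there by 0.67 ± 0.19 (adjusted p = 0.0216), a call lost without shERK5-5 replicate 2 or 3 or shNSC replicate 2 (adjusted p up to 0.165) or in a fit of the SK-N-BE(2) arrays alone. TRIB3 was dim in that line, with a mean shNSC signal of 4.59, below the array medians of 5.63 to 5.69. DDIT4, an inhibitor of mTORC1 also known as REDD1, rose with shERK5-4 in SK-N-BE(2) by 0.81 ± 0.26 (adjusted p = 0.0249), a call lost without shERK5-4 or shNSC replicate 1 or 3 (adjusted p up to 0.18). None of these 3 was called in CHLA-90, where their log2 changes ran from -0.70 (DDIT4 with shERK5-5) to 0.21 (TRIB3 with shERK5-4). SESN2, a leucine sensor, and PPP1R15A, the phosphatase subunit GADD34 that reverses eIF2 alpha phosphorylation, were called in none of the 4 comparisons, with changes between -0.29 and 0.34.

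**Figure D2:**
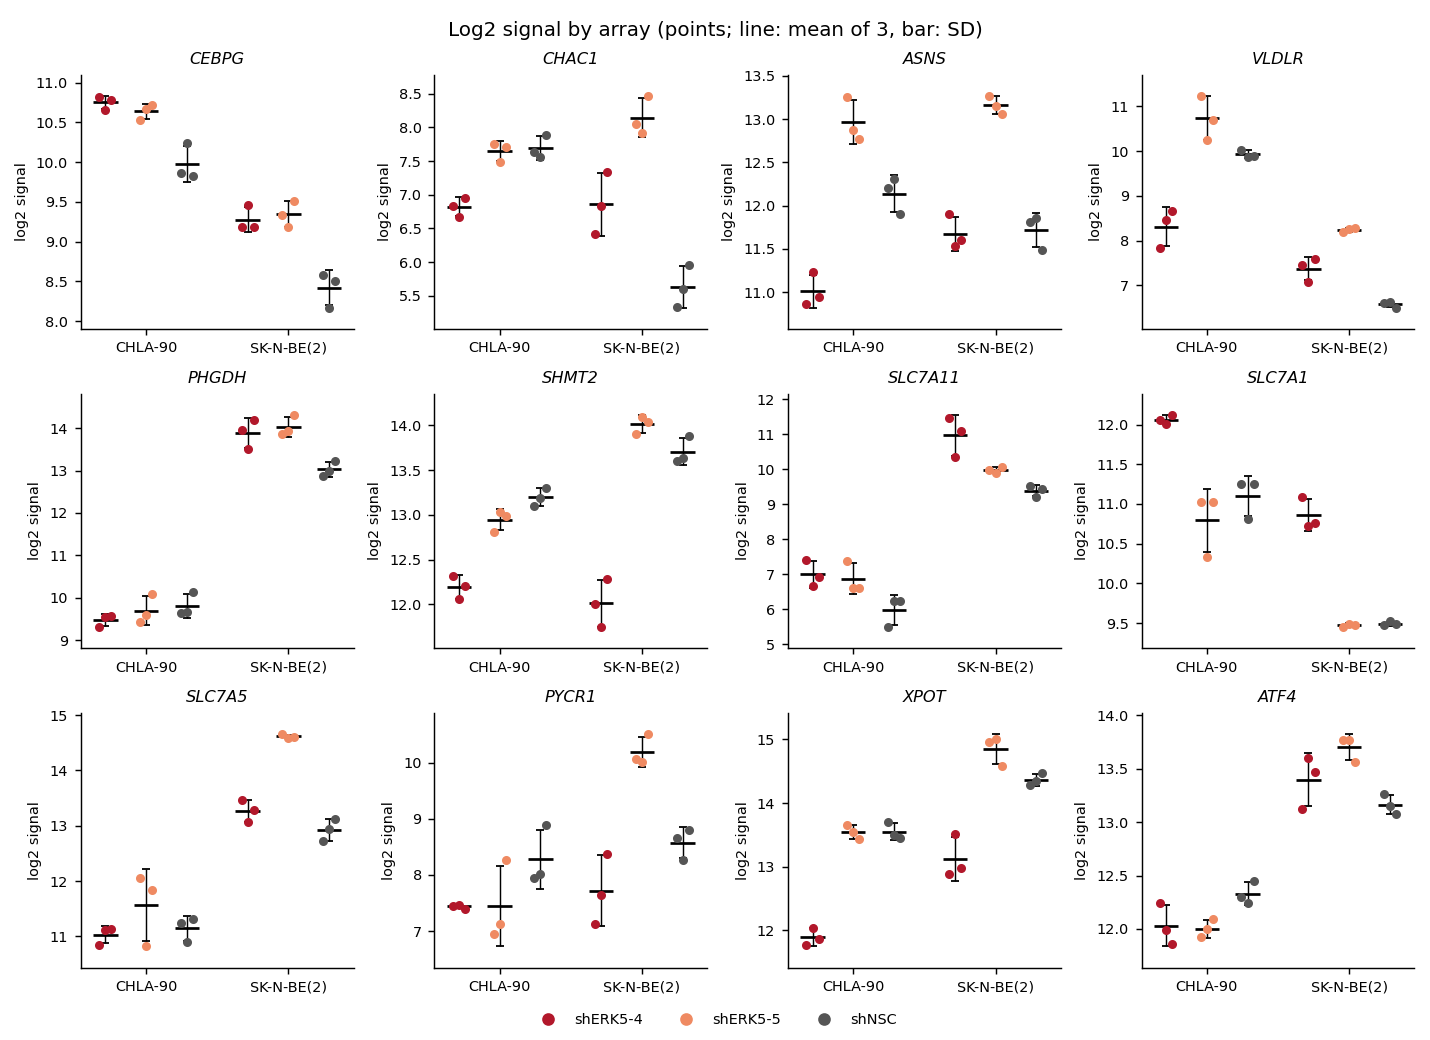
Log2 signal on each of the 18 arrays for 12 of the genes, by line (horizontal axis) and hairpin (colour), with points for arrays, a horizontal line for the mean of 3 and a bar for the SD. The 6 hairpin arrays of CEBPG lie above the 3 shNSC arrays in both lines, SHMT2 and XPOT are low with shERK5-4 in both, and SLC7A1 is high with shERK5-4 in both.

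Serine is made from the glycolytic intermediate 3-phosphoglycerate by PHGDH, PSAT1 and PSPH in turn. PHGDH, the first and committing enzyme, rose with both hairpins in SK-N-BE(2). Its log2 signal there was 13.96, 13.50 and 14.20 with shERK5-4, 13.87, 13.93 and 14.31 with shERK5-5, and 12.88, 12.99 and 13.23 with shNSC. All 6 hairpin arrays lay above the shNSC arrays, with changes of 0.85 ± 0.21 (adjusted p = 0.00379) and 1.00 ± 0.21 (adjusted p = 0.00184). In CHLA-90 PHGDH had 9.31, 9.54 and 9.56 with shERK5-4, 9.42, 9.59 and 10.08 with shERK5-5, and 9.63, 9.66 and 10.14 with shNSC. There the shERK5-5 arrays overlapped with both other groups and the shERK5-4 arrays lay just below those of shNSC. The changes were -0.34 and -0.11 (adjusted p = 0.324 and 0.794). PSAT1, the transaminase of the second step, was called only once, as a decrease of -0.73 ± 0.20 (adjusted p = 0.0126) with shERK5-4 in CHLA-90, with 12.57, 12.36 and 12.53, against 13.21, 13.23 and 13.22 with shNSC. That call was lost without shERK5-4 replicate 2 (adjusted p = 0.0608). PSPH, the phosphatase of the last step, changed by 0.60 ± 0.21 (adjusted p = 0.0407) with shERK5-4 and 0.60 ± 0.21 (adjusted p = 0.0642) with shERK5-5 in SK-N-BE(2). The estimates were nearly equal and only shERK5-4 passed the threshold, in a call lost without any 1 of 6 arrays (adjusted p up to 0.215) or in a fit of the SK-N-BE(2) arrays alone.

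SHMT2, the mitochondrial enzyme that splits serine into glycine and a one-carbon unit, fell with shERK5-4 in both lines. In CHLA-90 its log2 signal was 12.32, 12.06 and 12.20 with shERK5-4, 12.81, 13.03 and 12.99 with shERK5-5, and 13.10, 13.19 and 13.30 with shNSC. In SK-N-BE(2) it was 12, 11.75 and 12.28 with shERK5-4, 13.90, 14.10 and 14.04 with shERK5-5, and 13.60, 13.64 and 13.88 with shNSC. The shERK5-4 arrays lay below all others of their line in both cases. The changes with shERK5-4 were -1.00 ± 0.16 (adjusted p = 8.59e-05) in CHLA-90, a 2-fold decrease, and -1.70 ± 0.16 (adjusted p = 4.11e-08) in SK-N-BE(2), a 3.24-fold decrease. With shERK5-5 they were -0.25 and 0.31, and neither passed the threshold (adjusted p = 0.35 and 0.285).

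The next enzymes of the mitochondrial one-carbon chain differed again. MTHFD2, the mitochondrial methylenetetrahydrofolate dehydrogenase, moved in opposite directions with the hairpins in SK-N-BE(2), with 14.38, 13.73 and 14.06 for shERK5-4 and 15.33, 15.53 and 15.45 for shERK5-5, against 14.77, 14.83 and 14.76 for shNSC. The groups did not overlap, and the changes were -0.73 ± 0.17 (adjusted p = 0.00186) and 0.65 ± 0.17 (adjusted p = 0.0094). MTHFD1L, the mitochondrial formate-releasing enzyme, fell with shERK5-4 in SK-N-BE(2), with 10.46, 10.49 and 10.90, against 11.67, 11.69 and 11.32 with shNSC, a log2 change of -0.94 ± 0.16 (adjusted p = 7.79e-05). The shERK5-5 arrays there, at 11.17, 11.09 and 11.12, also lay below those of shNSC, and the change of -0.43 was not called. In CHLA-90 neither gene was called, with changes of -0.39 and 0.19 for MTHFD2 and -0.05 and 0.05 for MTHFD1L. ALDH1L2, which oxidises mitochondrial formyl-tetrahydrofolate, was called in no comparison with shNSC.

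ASNS, the asparagine synthetase and a standard readout of ATF4 activity, separated the hairpins in both lines. Its log2 signal in CHLA-90 was 10.87, 11.23 and 10.94 with shERK5-4, 13.25, 12.87 and 12.77 with shERK5-5, and 12.20, 12.31 and 11.90 with shNSC. The 3 groups did not overlap, with shERK5-4 lowest and shERK5-5 highest. The changes were -1.12 ± 0.18 (adjusted p = 7.11e-05), a 2.18-fold decrease, and 0.83 ± 0.18 (adjusted p = 0.00318), a 1.77-fold increase. In SK-N-BE(2) ASNS had 11.90, 11.53 and 11.60 with shERK5-4, 13.27, 13.15 and 13.06 with shERK5-5, and 11.81, 11.86 and 11.49 with shNSC. With shERK5-5 it rose by 1.44 ± 0.18 (adjusted p = 4.74e-06), or 2.71-fold, while the shERK5-4 and shNSC arrays overlapped (-0.04, adjusted p = 0.915).

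PYCR1, the mitochondrial enzyme of the last step of proline synthesis, rose with shERK5-5 in SK-N-BE(2). The log2 signal was 7.13, 7.65 and 8.38 with shERK5-4, 10.06, 10.01 and 10.50 with shERK5-5, and 8.65, 8.27 and 8.80 with shNSC. The shERK5-5 arrays lay far above the others, and the change of 1.62 ± 0.32 (adjusted p = 0.000958) is 3.07-fold. The shERK5-4 change in SK-N-BE(2) and both changes in CHLA-90 were -0.85, -0.84 and -0.83 and did not pass the threshold (adjusted p = 0.0542, 0.0719 and 0.0909). PCK2, the mitochondrial phosphoenolpyruvate carboxykinase, rose with shERK5-5 in SK-N-BE(2) by 1.02 ± 0.28 (adjusted p = 0.0183), a call lost without shERK5-5 replicate 3 or shNSC replicate 1 (adjusted p up to 0.123). PCK2 was dim there, with a mean shNSC signal of 5.05, below the array medians of the line (5.63 to 5.69). CBS, which joins serine to homocysteine in transsulfuration, rose with shERK5-4 in SK-N-BE(2) by 0.76 ± 0.18 (adjusted p = 0.00258), with 12.35, 12.44 and 12.41, against 11.77, 11.39 and 11.77 with shNSC. CTH, the following enzyme of that route, had changes between -0.19 and 0.04 and no call.

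Of the 8 amino acid transporters, in CHLA-90 2 rose with shERK5-4, and 2 rose and 1 fell with shERK5-5. In SK-N-BE(2) 2 rose with shERK5-4 and 5 with shERK5-5. Of all probes in CHLA-90, 10.0% rose with shERK5-4, and 5.85% rose and 6.84% fell with shERK5-5. The shares that rose in SK-N-BE(2) were 12.2% with shERK5-4 and 6.76% with shERK5-5. SLC7A11, the cystine-glutamate exchanger xCT that supplies cysteine for glutathione, had log2 signals in CHLA-90 of 7.40, 6.66 and 6.91 with shERK5-4, 7.38, 6.61 and 6.61 with shERK5-5, and 5.49, 6.22 and 6.23 with shNSC. Every hairpin array there lay above every shNSC array. These shNSC signals were dim, below the array medians of CHLA-90 (6.35 to 6.43). The changes were 1.01 ± 0.27 (adjusted p = 0.00961) and 0.89 ± 0.27 (adjusted p = 0.032). In SK-N-BE(2) its signals were 11.46, 10.33 and 11.10 with shERK5-4, 9.97, 9.89 and 10.05 with shERK5-5, and 9.51, 9.21 and 9.42 with shNSC. Here the groups did not overlap, while in CHLA-90 the hairpins overlapped with each other. Only the shERK5-4 change in SK-N-BE(2), 1.58 ± 0.27 (adjusted p = 9.22e-05) or 3-fold, passed the threshold, and that with shERK5-5 was 0.59 ± 0.27 (adjusted p = 0.188). Each CHLA-90 call was lost without shNSC replicate 1 or without replicate 1 of its own hairpin (adjusted p up to 0.0787 for shERK5-4 and 0.181 for shERK5-5).

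SLC7A1, the cationic amino acid transporter CAT1, rose with shERK5-4 in both lines and was called with shERK5-5 in neither. In CHLA-90 it had 12.06, 12.01 and 12.12 with shERK5-4, 11.02, 10.33 and 11.03 with shERK5-5, and 11.25, 10.81 and 11.25 with shNSC. In SK-N-BE(2) it had 11.09, 10.72 and 10.76 with shERK5-4, 9.45, 9.49 and 9.48 with shERK5-5, and 9.47, 9.52 and 9.49 with shNSC. The shERK5-4 arrays lay above all others of the line, and the shERK5-5 and shNSC arrays overlapped. The shERK5-4 changes were 0.96 ± 0.18 (adjusted p = 0.000577) in CHLA-90 and 1.36 ± 0.18 (adjusted p = 5.91e-06) in SK-N-BE(2), and those with shERK5-5 were -0.31 (adjusted p = 0.308) and -0.02 (0.978).

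In SK-N-BE(2), 5 transporters were called with shERK5-5 and not with shERK5-4. Set against each other, the hairpins differed for 4 of them, and for SLC3A2 the difference of -0.60 did not pass the threshold (adjusted p = 0.0571). SLC7A5, the LAT1 carrier of large neutral amino acids, had 13.47, 13.07 and 13.28 with shERK5-4, 14.65, 14.58 and 14.61 with shERK5-5, and 12.72, 12.95 and 13.12 with shNSC. The tight shERK5-5 arrays stood above the rest, with a change of 1.68 ± 0.23 (adjusted p = 1.79e-05), or 3.21-fold. SLC3A2, the heavy chain that pairs with SLC7A5 and with SLC7A11, rose by 0.87 ± 0.22 (adjusted p = 0.0105), a call lost without shNSC replicate 2 (adjusted p = 0.0537). SLC1A4 and SLC1A5, the neutral amino acid exchangers ASCT1 and ASCT2, rose by 1.27 ± 0.22 (adjusted p = 0.000336) and 0.89 ± 0.19 (adjusted p = 0.00202). SLC1A4 read 5.85, 6.08 and 6.69 with shERK5-5, against 5.08, 4.71 and 5.03 with shNSC, with no overlap. These shNSC signals lay below the array medians of the line (5.63 to 5.69). SLC6A9, the glycine transporter GLYT1, rose with shERK5-5 in both lines, by 0.94 ± 0.17 (adjusted p = 0.000746) in CHLA-90 and 1.08 ± 0.17 (adjusted p = 0.00011) in SK-N-BE(2). Its arrays there read 7.87, 7.74 and 7.64 in CHLA-90, against 6.63, 7.02 and 6.78 with shNSC, and 7.33, 7.68 and 7.75 in SK-N-BE(2), against 6.54, 6.20 and 6.78.

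SLC1A5 was the 1 gene that moved in opposite directions in the lines with shERK5-5, a pattern of 0.336% of all probes. In CHLA-90 it fell to 10.33, 9.52 and 10.37 with shERK5-5, against 10.93, 10.84 and 10.85 with shNSC, a change of -0.80 ± 0.19 (adjusted p = 0.00662). In SK-N-BE(2) it had 11.56, 11.30 and 11.61 with shERK5-5, against 10.47, 10.53 and 10.79 with shNSC. In each line the shERK5-5 arrays did not overlap with those of shNSC. SLC38A2, the SNAT2 carrier of small neutral amino acids, was called nowhere, with changes between -0.47 and 0.02.

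The genes of tRNA supply are XPOT and 4 tRNA synthetases. XPOT, the exportin that carries tRNA out of the nucleus, fell with shERK5-4 in both lines. Its log2 signal was 11.76, 12.04 and 11.86 with shERK5-4, 13.65, 13.54 and 13.44 with shERK5-5, and 13.70, 13.50 and 13.45 with shNSC in CHLA-90. The SK-N-BE(2) signals were 12.88, 13.51 and 12.97 with shERK5-4, 14.96, 15.00 and 14.58 with shERK5-5, and 14.29, 14.34 and 14.47 with shNSC. The shERK5-4 arrays were the lowest of each line, with changes of -1.66 ± 0.18 (adjusted p = 3.57e-07) in CHLA-90, a 3.17-fold decrease, and -1.25 ± 0.18 (adjusted p = 1.09e-05) in SK-N-BE(2), a 2.37-fold decrease. With shERK5-5 the changes were -0.01 and 0.48 (adjusted p = 0.988 and 0.0855), although in SK-N-BE(2) the shERK5-5 arrays all lay above those of shNSC.

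Of the 4 tRNA synthetases, which load amino acids onto their tRNAs, 3 rose with shERK5-5 in SK-N-BE(2), where 6.76% of all probes rose. AARS1, for alanine, rose by 0.74 ± 0.16 (adjusted p = 0.00265), with 13.38, 13.55 and 13.47, against 12.51, 12.85 and 12.81 with shNSC. GARS1, for glycine, rose by 0.91 ± 0.15 (adjusted p = 0.00017), with 15.79, 15.84 and 15.84, against 14.81, 14.85 and 15.09. SARS1, for serine, rose by 0.85 ± 0.24 (adjusted p = 0.0198), a call lost without shERK5-5 replicate 3 or shNSC replicate 1 or 3 (adjusted p up to 0.131) or in a fit of the SK-N-BE(2) arrays alone. GARS1 also rose with shERK5-4 there, by 0.52 ± 0.15 (adjusted p = 0.013), a call lost without shERK5-4 replicate 2 or shNSC replicate 1 or 2 (adjusted p up to 0.0617). WARS1, for tryptophan, was called nowhere, and no synthetase was called in CHLA-90, where the changes of the 4 ran from -0.42 to 0.07.

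VLDLR, the very low density lipoprotein receptor and an ATF4 target outside amino acid metabolism, was called in every comparison with shNSC but not in 1 direction. In CHLA-90 its log2 signal was 7.83, 8.45 and 8.66 with shERK5-4, 11.24, 10.26 and 10.70 with shERK5-5, and 10.03, 9.87 and 9.89 with shNSC. The groups did not overlap, with shERK5-4 lowest and shERK5-5 highest, as for ASNS in that line. The changes were -1.62 ± 0.22 (adjusted p = 1.08e-05), a 3.07-fold decrease, and 0.80 ± 0.22 (adjusted p = 0.0189). The second call was lost without shERK5-5 replicate 1 or shNSC replicate 2 or 3 (adjusted p up to 0.125) and in a fit of the CHLA-90 arrays alone. In SK-N-BE(2) VLDLR had 7.45, 7.08 and 7.59 with shERK5-4, 8.19, 8.26 and 8.28 with shERK5-5, and 6.60, 6.62 and 6.50 with shNSC. Both hairpins lay above shNSC there, with changes of 0.80 ± 0.22 (adjusted p = 0.00924) and 1.67 ± 0.22 (adjusted p = 1.10e-05), or 1.74-fold and 3.18-fold.

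STC2, a secreted glycoprotein induced by endoplasmic reticulum stress, moved in opposite directions with the hairpins in SK-N-BE(2), by -0.64 ± 0.20 (adjusted p = 0.0226) and 0.73 ± 0.20 (adjusted p = 0.0183). Its arrays read 5.64, 5.49 and 6.00 with shERK5-4 and 6.79, 7.06 and 7.39 with shERK5-5, against 6.55, 6.24 and 6.27 with shNSC. The groups did not overlap. Each call rested on single arrays and was lost without shERK5-4 replicate 1 or 2 or shNSC replicate 1 in the first case (adjusted p up to 0.106), and without shERK5-5 replicate 3 or shNSC replicate 2 or 3 in the second (up to 0.124).

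The genes called alike with both hairpins in CHLA-90 were CEBPG and SLC7A11, both higher. They are 5% of the 40 genes, and 3.51% of all probes were called alike there. In SK-N-BE(2) they were CEBPG, CHAC1, PHGDH, GARS1 and VLDLR, all higher, or 12.5% of the 40, with 5.21% of all probes called alike. Opposite calls were ASNS and VLDLR in CHLA-90 (5%, background 1.40%) and MTHFD2 and STC2 in SK-N-BE(2) (5%, background 1.94%). The CHLA-90 count of 2 dropped to 0 without shNSC replicate 1, and to 1 without shNSC replicate 3 or replicate 1 of either hairpin.

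With shERK5-4, 5 genes moved alike in both lines, CEBPG, SLC7A11 and SLC7A1 upward and SHMT2 and XPOT downward, where 10.4% of all probes were called alike. With shERK5-5 they were CEBPG, ASNS, SLC6A9 and VLDLR, all upward, against 4.58% of probes. CHAC1 and VLDLR were called in opposite directions in the lines with shERK5-4, a pattern of 0.471% of probes.

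The direct comparison of shERK5-4 with shERK5-5 asks where the hairpins, which lowered MAPK7 by similar amounts, differed. In CHLA-90, 3 of the 40 genes were higher and 9 lower with shERK5-4 than with shERK5-5, where 14.8% of all probes stood higher and 12.4% stood lower. In SK-N-BE(2), 3 were higher and 19 lower (background 11.8% and 12.6%), and the median log2 difference was -0.52, against 0.03 over all probes. MAPK7 differed between the hairpins by -0.08 in CHLA-90 (95% interval -0.48 to 0.32) and by -0.06 in SK-N-BE(2) (-0.46 to 0.35).

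In this comparison 10 of the 40 genes differed alike in both lines, and 11.7% of all probes did. CBS and SLC7A1 were higher with shERK5-4 than with shERK5-5 in both lines, SLC7A1 by 1.27 ± 0.18 (adjusted p = 1.73e-05) in CHLA-90 and 1.38 ± 0.18 (adjusted p = 3.97e-06) in SK-N-BE(2). CHAC1, PSAT1, SHMT2, MTHFD2, ASNS, SLC6A9, XPOT and VLDLR were lower with shERK5-4 in both. ASNS differed by -1.95 ± 0.18 (adjusted p = 2.81e-08) in CHLA-90 and -1.48 ± 0.18 (adjusted p = 9.48e-07) in SK-N-BE(2), XPOT by -1.66 ± 0.18 (adjusted p = 2.71e-07) and -1.73 ± 0.18 (adjusted p = 9.05e-08), and VLDLR by -2.42 ± 0.22 (adjusted p = 2.71e-08) and -0.87 ± 0.22 (adjusted p = 0.00463). SHMT2 differed by -0.75 ± 0.16 (adjusted p = 0.00129) in CHLA-90 and by -2.00 ± 0.16 (adjusted p = 2.46e-09) in SK-N-BE(2), the second a 4.01-fold difference. Single arrays carried the call of PSAT1 in both lines, of MTHFD2 in CHLA-90 and of CBS in CHLA-90, with adjusted p up to 0.0807, 0.0615 and 0.0591 when 1 array was left out. DDIT3 differed in opposite directions, 0.65 ± 0.17 (adjusted p = 0.00619) in CHLA-90 and -0.84 ± 0.17 (adjusted p = 0.000569) in SK-N-BE(2). PYCR1, with the largest difference of the 40 genes, was lower with shERK5-4 in SK-N-BE(2) by -2.47 ± 0.32 (adjusted p = 2.19e-06), and differed by -0.01 in CHLA-90 (95% interval -0.66 to 0.65).

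**Figure D3:**
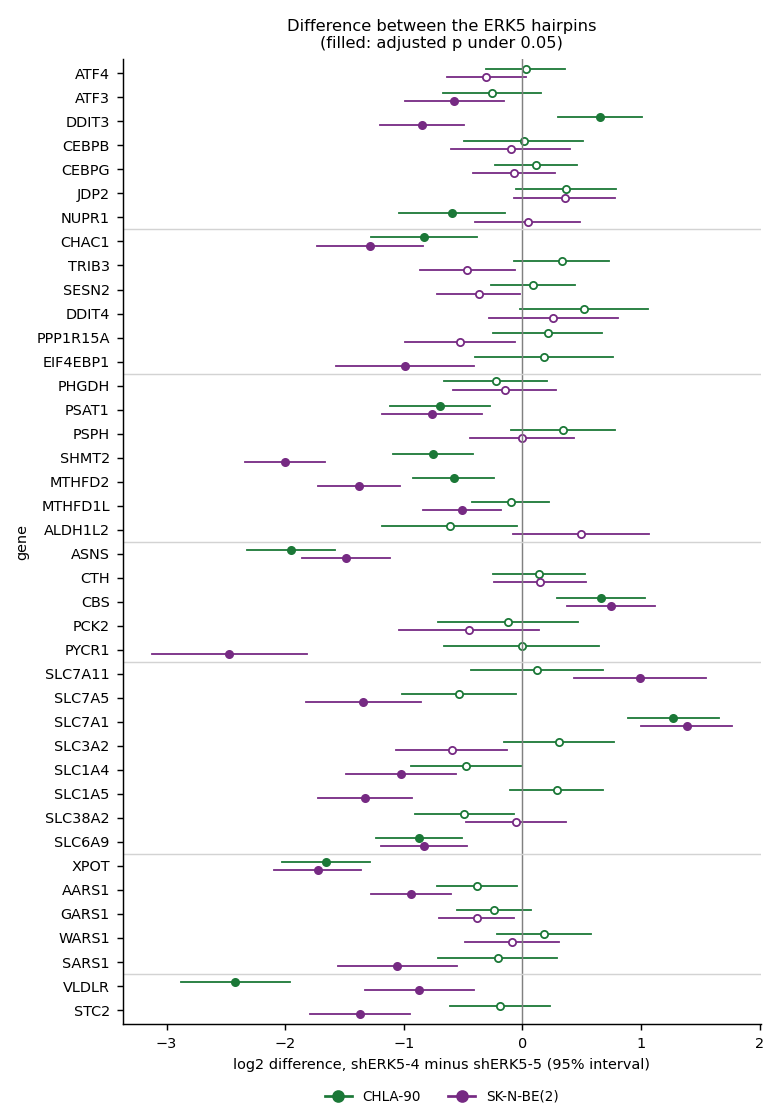
Log2 difference of shERK5-4 from shERK5-5 (horizontal axis, with 95% intervals) for each of the 40 genes, by line (colour), where filled points have an adjusted p under 0.05. In SK-N-BE(2) 19 filled points lie left of 0 and 3 right of it, and in CHLA-90 9 lie left and 3 right.

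Whether the lines answered a hairpin differently was tested as the hairpin's effect in CHLA-90 minus its effect in SK-N-BE(2). For shERK5-5 this difference was called for 12 genes, all negative, where 2.40% of all probes were positive and 2.99% negative. The 12 genes cover several roles: ATF4, DDIT3, CHAC1, EIF4EBP1, PHGDH, PCK2, PYCR1, SLC7A5, SLC3A2, SLC1A5, AARS1 and GARS1. CHAC1 had the largest, -2.56 ± 0.30 (adjusted p = 2.98e-05), from a change of -0.05 in CHLA-90 and 2.52 in SK-N-BE(2). PYCR1 followed with -2.45 ± 0.45 (adjusted p = 0.00223) and SLC1A5 with -1.69 ± 0.27 (adjusted p = 0.000675). The count of 12 was less stable than its direction: it was 6 after quantile normalization, and 4 to 6 without CHLA-90 shNSC replicate 1 or 3, SK-N-BE(2) shERK5-5 replicate 1 or 3, or SK-N-BE(2) shNSC replicate 1 or 2. For CHAC1, PYCR1 and SLC1A5 the call was kept in every alternative run.

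For shERK5-4 the line difference was called for 5 genes, MTHFD1L as positive and CHAC1, PHGDH, ASNS and VLDLR as negative (background 3.89% and 3.33%). VLDLR had -2.42 ± 0.31 (adjusted p = 2.51e-05) and CHAC1 -2.10 ± 0.30 (adjusted p = 9.92e-05), the genes whose shERK5-4 changes were called with opposite signs in the lines. MTHFD1L had 0.89 ± 0.22 (adjusted p = 0.0149), from -0.05 in CHLA-90 and -0.94 in SK-N-BE(2). PHGDH had -1.19 ± 0.30 (adjusted p = 0.0146), a call lost without CHLA-90 shNSC replicate 3 (adjusted p = 0.0513). For CEBPG the difference between the lines was -0.08 with shERK5-4 (95% interval -0.57 to 0.41) and -0.27 with shERK5-5 (-0.76 to 0.22), and neither passed the threshold.

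**Figure D4:**
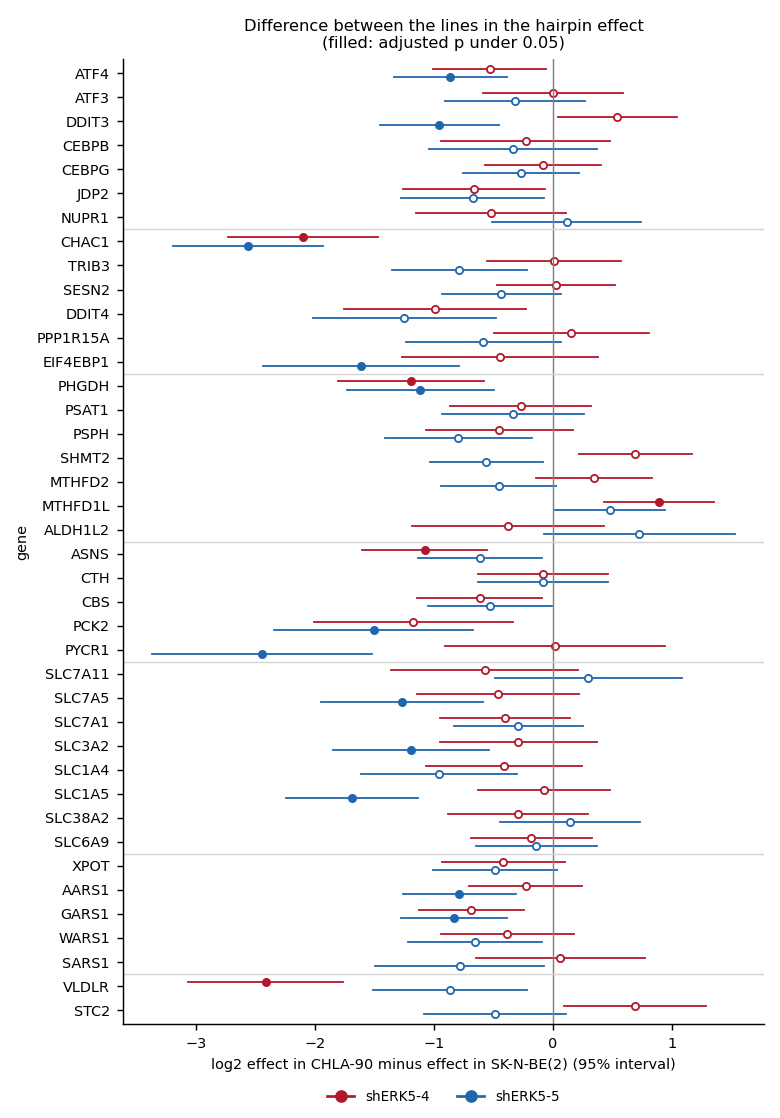
Effect of a hairpin in CHLA-90 minus its effect in SK-N-BE(2) on the log2 scale (horizontal axis, with 95% intervals) for each of the 40 genes, by hairpin (colour), where filled points have an adjusted p under 0.05. All 12 filled shERK5-5 points lie left of 0, as do 4 of the 5 filled shERK5-4 points.

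The lines also started from different levels under shNSC, given here without a test because their array medians stand 0.72 apart on the log2 scale. PHGDH had a mean of 9.81 in CHLA-90 and 13.03 in SK-N-BE(2), and SLC7A11 had 5.98 and 9.38. VLDLR ran the other way, with 9.93 in CHLA-90 and 6.57 in SK-N-BE(2). As deposited, 22 of the 40 genes were higher in CHLA-90 and 18 lower. After the medians of all arrays were set equal, 12 were higher and 28 lower.

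Results were also split by the promoter core, as a description without a test. With shERK5-5 in SK-N-BE(2), 8 of the 12 genes with the core and 11 of the 21 without it were called higher, with median log2 changes of 0.88 and 0.54. Of all probes, 6.76% rose there. With shERK5-4 in SK-N-BE(2), 4 of the 12 were higher and 1 lower, against 4 and 3 of the 21 (background 12.2% and 11.7%). With shERK5-4 in CHLA-90, 2 of the 12 were higher and 2 lower, against 0 higher and 3 lower of the 21 (10.0% and 8.25%). With shERK5-5 in CHLA-90, 2 of the 12 were higher and 2 lower, against 2 and 0 of the 21 (5.85% and 6.84%). The shown stretches belong to genes with unlike results: CEBPG rose throughout, ASNS moved both ways in CHLA-90, and MTHFD1L was called lower in 1 comparison with shNSC.

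Genes around this pathway were taken from a list of 82, of which 71 had a probe. This list too was chosen with earlier results of these data known, so its shares are a description. In CHLA-90, 6 rose and 7 fell with shERK5-4, or 8.45% and 9.86% of them, against 10.0% and 8.25% of all probes, and 7 rose and 8 fell with shERK5-5, or 9.86% and 11.3%, against 5.85% and 6.84%. In SK-N-BE(2), 9 rose and 16 fell with shERK5-4, or 12.7% and 22.5%, against 12.2% and 11.7%, and 13 rose and 7 fell with shERK5-5, or 18.3% and 9.86%, against 6.76% and 6.07%. Among the eIF2 alpha kinases, EIF2AK3, the endoplasmic reticulum kinase PERK, rose with shERK5-5 by 1.17 ± 0.20 (adjusted p = 0.000378) in CHLA-90 and 1.69 ± 0.20 (adjusted p = 2.63e-06) in SK-N-BE(2). With shERK5-4 its changes were 0.58 ± 0.20 (adjusted p = 0.0495) in CHLA-90 and 0.21 in SK-N-BE(2) (adjusted p = 0.534). DEPTOR, an inhibitor of mTOR, fell with shERK5-4 in both lines, with log2 changes of -1.02 ± 0.21 (adjusted p = 0.0011) in CHLA-90 and -1.50 ± 0.21 (adjusted p = 8.86e-06) in SK-N-BE(2).

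MTHFD1, the cytosolic one-carbon enzyme, fell with shERK5-4, with log2 changes of -2.69 ± 0.16 (adjusted p = 3.57e-11) in CHLA-90 and -3.84 ± 0.16 (adjusted p = 8.71e-14) in SK-N-BE(2), or 6.44-fold and 14.3-fold, while with shERK5-5 the changes were -0.23 and -0.06 (adjusted p = 0.376 and 0.889). The hairpin sequences were not used here, and whether shERK5-4 matches MTHFD1, SHMT2 or other transcripts besides MAPK7 was not examined. GLUD1, glutamate dehydrogenase, fell with both hairpins, with log2 changes of -2.17 ± 0.17 (adjusted p = 3.25e-09) and -2.16 ± 0.17 (adjusted p = 2.44e-08) in CHLA-90 and -2.06 ± 0.17 (adjusted p = 4.47e-09) and -2.67 ± 0.17 (adjusted p = 3.78e-10) in SK-N-BE(2). TYMS, thymidylate synthase, which uses one-carbon units for DNA synthesis, also fell in all 4 comparisons, with log2 changes of -0.61 and -1.23 in CHLA-90 and -0.86 and -1.15 in SK-N-BE(2), with adjusted p of at most 0.00705. SLC38A1, the SNAT1 glutamine carrier, fell with shERK5-4, with -0.82 ± 0.15 (adjusted p = 0.000354) in CHLA-90 and -1.41 ± 0.15 (adjusted p = 2.30e-07) in SK-N-BE(2). SLC7A2, a cationic amino acid transporter like SLC7A1, fell in SK-N-BE(2) with both hairpins, with -2.45 ± 0.22 (adjusted p = 2.10e-08) and -1.68 ± 0.22 (adjusted p = 1.16e-05), and in CHLA-90 with shERK5-5, with -0.72 ± 0.22 (adjusted p = 0.0363), where shERK5-4 gave -0.57 (adjusted p = 0.0832). TRIB2, a relative of TRIB3, rose with shERK5-5 by 1.52 ± 0.16 (adjusted p = 1.09e-06) in CHLA-90 and 0.66 ± 0.16 (adjusted p = 0.00682) in SK-N-BE(2), and fell with shERK5-4 in SK-N-BE(2), with -0.77 ± 0.16 (adjusted p = 0.000877). LURAP1L rose with shERK5-5 by 1.92 ± 0.21 (adjusted p = 1.75e-06) in CHLA-90 and 2.05 ± 0.21 (adjusted p = 3.88e-07) in SK-N-BE(2), and fell with shERK5-4 in SK-N-BE(2), with a log2 change of -2.31 ± 0.21 (adjusted p = 2.08e-08).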

How the data were processed

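Expression was read on 18 biotin-labelled whole-transcript arrays. The values deposited by the authors are log2 signals, 1 for each of 21448 probes and array, already summarised and normalized. The base of the log is taken from the range of the values. For software, summarisation and build, each was not given in the sources used here. Array medians of the 2 lines lie apart, so levels of the 2 lines are given side by side without a test, and tests compare groups of a line or the effects in the 2 lines. Signals carry no read depth, background calls were not used, and precision is limited by the 3 arrays of a group.

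Groups come from the labels. Probes were named from GEO's platform annotation: 17709 had 1 symbol, 3739 none and 0 several. The probe with the highest mean stands for a gene, which concerned CBS alone among the genes described. No probe was filtered out.

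One limma model (3.58.1, R 4.3.3) with a mean for every group was fitted to all arrays, with 12 residual and 9.588 prior degrees of freedom. Its 8 contrasts were adjusted over all probes by Benjamini-Hochberg, and called under 0.05 whatever the fold. It was tested on simulated data. The 42 genes, the related genes and the markers were chosen with earlier results of these data known. Signals per array are given for ATF4, for the up to 6 largest called changes of each comparison with shNSC, for genes called alike in both lines and for some others. Of the related genes, those with the 4 smallest p of such a comparison are named. Promoter cores were matched on both strands of RefSeq windows. Alternatives are given in the closing section, which also says what the replicate numbers show. Near-identical gene copies were not examined.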

Additional observations from a re-analysis of the deposited data

Results flagged for a closer look

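By the interaction term of the limma model, the lines differed in 5 genes with shERK5-4 and in 12 with shERK5-5. Differences are given on the log2 scale as CHLA-90 effect minus SK-N-BE(2) effect. Of all probes, 3.89% were called positive and 3.33% negative with shERK5-4, and 2.40% and 2.99% with shERK5-5. With shERK5-4 the differences were -2.10 ± 0.30 (adjusted p = 9.92e-05) for CHAC1, -1.19 ± 0.30 (adjusted p = 0.0146) for PHGDH, 0.89 ± 0.22 (adjusted p = 0.0149) for MTHFD1L, -1.08 ± 0.25 (adjusted p = 0.00942) for ASNS and -2.42 ± 0.31 (adjusted p = 2.51e-05) for VLDLR, with SE after each value. The effects behind them were -0.87 in CHLA-90 and 1.23 in SK-N-BE(2) for CHAC1, -1.12 and -0.04 for ASNS, and -1.62 and 0.80 for VLDLR.

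With shERK5-5 the differences of the regulators were -0.86 ± 0.23 (adjusted p = 0.0284) for ATF4, -0.96 ± 0.24 (adjusted p = 0.023) for DDIT3, -2.56 ± 0.30 (adjusted p = 2.98e-05) for CHAC1 and -1.61 ± 0.40 (adjusted p = 0.0199) for EIF4EBP1. Those of the enzymes were -1.12 ± 0.30 (adjusted p = 0.0294) for PHGDH, -1.51 ± 0.40 (adjusted p = 0.0299) for PCK2 and -2.45 ± 0.45 (adjusted p = 0.00223) for PYCR1. Those of the transporters were -1.27 ± 0.33 (adjusted p = 0.0255) for SLC7A5, -1.19 ± 0.32 (adjusted p = 0.0291) for SLC3A2 and -1.69 ± 0.27 (adjusted p = 0.000675) for SLC1A5. The tRNA synthetases AARS1 and GARS1 had -0.79 ± 0.23 (adjusted p = 0.0475) and -0.83 ± 0.21 (adjusted p = 0.0243).

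The AARS1 call was lost without any 1 of 14 arrays (adjusted p up to 0.126), SLC3A2 without any 1 of 8, ATF4 and PCK2 without any 1 of 7, SLC7A5, GARS1 and PHGDH with shERK5-5 without any 1 of 6, EIF4EBP1 of 4 and DDIT3 of 3. The differences of CHAC1 with both hairpins, of PYCR1 and SLC1A5 with shERK5-5, and of MTHFD1L, ASNS and VLDLR with shERK5-4 kept their call in every alternative run.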

How the results depend on the processing

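Arrays give no depth, and 3 per group limit what can be called. Of 103 called values of the 40 genes over the 8 comparisons, 68 kept their call and direction in every alternative, 35 lost the call in at least 1, each of these without some single array, and 0 reversed. The alternatives were median centring, quantile normalization, leaving out probes below the 25 percentile, a replicate block, the arrays of 1 line alone, eBayes with trend and robust estimation, the mean of a gene's probes, and leaving out each array in turn.

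The count of line differences with shERK5-5, 12 as reported, was 6 after quantile normalization and 4 to 13 when 1 array was left out. The count of genes called alike by both hairpins in CHLA-90, 2 as reported, ran from 0 to 3 when 1 array was left out. The SK-N-BE(2) change of MAPK7 ran from -0.86 to -0.59 with shERK5-4 and from -0.80 to -0.53 with shERK5-5. Other counts stayed within 1.5 times of those reported under these settings. Why these values moved was not tested.

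By the rule that every same-numbered pair must correlate over 0.1, the replicate numbers were not taken to pair the arrays. Same-numbered arrays of different groups of a line had deviations that correlated with r from -0.06 to 0.20 in CHLA-90, with 4 of 9 pairs over 0.1 (2 of 18 differently numbered pairs), and from -0.13 to 0.20 in SK-N-BE(2), with 3 of 9 (2 of 18). Of 9 arrays each, 7 in CHLA-90 and 3 in SK-N-BE(2) correlated best with their own number, which in CHLA-90 is a hint of shared conditions from the data, not the design. With the replicate block, 10 and 9 genes were called for shERK5-4 and shERK5-5 in CHLA-90 and 16 and 21 in SK-N-BE(2), 12 in CHLA-90 and 23 in SK-N-BE(2) between the hairpins, and 5 and 13 for the line differences with shERK5-4 and shERK5-5. Both hairpins then called 3 genes alike in CHLA-90 and 6 in SK-N-BE(2), against 2 and 5 without the block. DDIT3 with shERK5-5 in SK-N-BE(2) was the 1 call lost with it (adjusted p = 0.069).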
